A study of Mus musculus with 12 samples.

Results

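The members described here are 10 genes of the epidermal growth factor (EGF) system, 7 ligands and 3 receptors, in RNA-seq of mouse back skin. They were picked by symbol, from the known family, out of the 18505 genes of the expression table. The ligands are Egf, Tgfa, Hbegf, Areg, Ereg, Btc and Epgn, and the receptors are Egfr, Erbb2 and Erbb3. Expression was given as FPKM, the fragments counted per kilobase of transcript and divided by the sample's mapped fragments, so that levels of different genes can be set side by side per length. The question was which of these genes differed in imiquimod (IMQ) lesions and after Banzhilian formula (BZLF), a botanical preparation, was put on them. All 12 samples came from the back skin of WT BALB/c mice on day 10, with 4 samples in each of 3 groups. By the study's methods the mice were male and were 5 to 6 weeks old as supplied. The control mice, whose label reads white space handling, had petroleum jelly on the shaved back. In the IMQ + NS group IMQ cream, which drives psoriasis-like inflammation in mice, lay on the skin for 6 h and was followed by saline under gauze and film. The study's methods have the cream put on once daily over 10 days. The IMQ + BZLF group received BZLF in place of the saline, at a dose that the sources used here do not give for the sequenced mice. IMQ + NS therefore differed from control in the covering and the saline as well as in IMQ, and these cannot be told apart. Nothing in the labels says that each sample is a separate mouse, so the p-values measure the spread between these samples.

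The EGF receptor, encoded by Egfr, is a tyrosine kinase on keratinocytes and other cells. Its ligands are made as membrane-bound precursors that metalloproteases of the ADAM family cut free, and a bound receptor pairs with itself or with a relative such as ErbB2, which has no known ligand of its own, or ErbB3, whose kinase is weak and whose ligands are the neuregulins. The pairs signal mainly through the RAS-MAPK and PI3K-AKT routes, and in skin the system is known for driving keratinocyte proliferation and migration, for shaping the hair follicle, and for raised transforming growth factor alpha and amphiregulin in psoriatic epidermis.

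All 10 members passed the filter of a mean of at least 0.1 FPKM over the 12 samples, as did 15288 of the 18505 genes. The FPKM of a sample added up over all genes to between 444660 and 461199 in the controls and between 476676 and 506622 in the IMQ groups. These ranges do not overlap, and the number of reads behind each value is unknown. Control replicate 2 stood apart. Its correlation with the other controls over the tested genes lay between 0.949 and 0.961, against 0.985 to 0.990 between the others. The skin label fitted the defining keratins in every sample, with Krt14 of basal keratinocytes at 405 to 2958 FPKM and Krt10 of suprabasal keratinocytes at 483 to 1812 FPKM. Transcripts of other organs were found in several libraries, with a sum over 6 seminal vesicle genes of 39.4 FPKM in control replicate 2 and 38.2 FPKM in IMQ + BZLF replicate 2, at most 0.0441 FPKM elsewhere, and a sum over 6 pancreas genes of 1.99 to 123 FPKM. These are pieces of whole skin, so fewer cells of a type and less RNA per cell cannot be told apart.

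IMQ + NS skin differed from control skin in all 10 members. Of the 7 ligands, Tgfa, Areg, Ereg, Epgn and Hbegf were higher and Egf and Btc were lower, and all 3 receptors were higher. With limma on log2(FPKM + 0.1) and an adjusted p below 0.05, 8 members were higher and 2 were lower, against 29.0% and 27.1% of all tested genes. With a fold change of more than 1 on the log2 scale as well, 6 were higher and 2 were lower, where the shares of all tested genes were 11.4% and 11.0%. The median log2 fold change was 1.09 over the 10 members and 0.05 over all tested genes. In each of the 10 genes the 4 IMQ + NS samples lay wholly above or wholly below the 4 controls. The exact permutation p of each was 0.0286, two-sided, the smallest that 4 samples against 4 allow. The share of all tested genes that separate in the same way was not counted, so this is not read as a trait of the family.

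**Figure D1:**
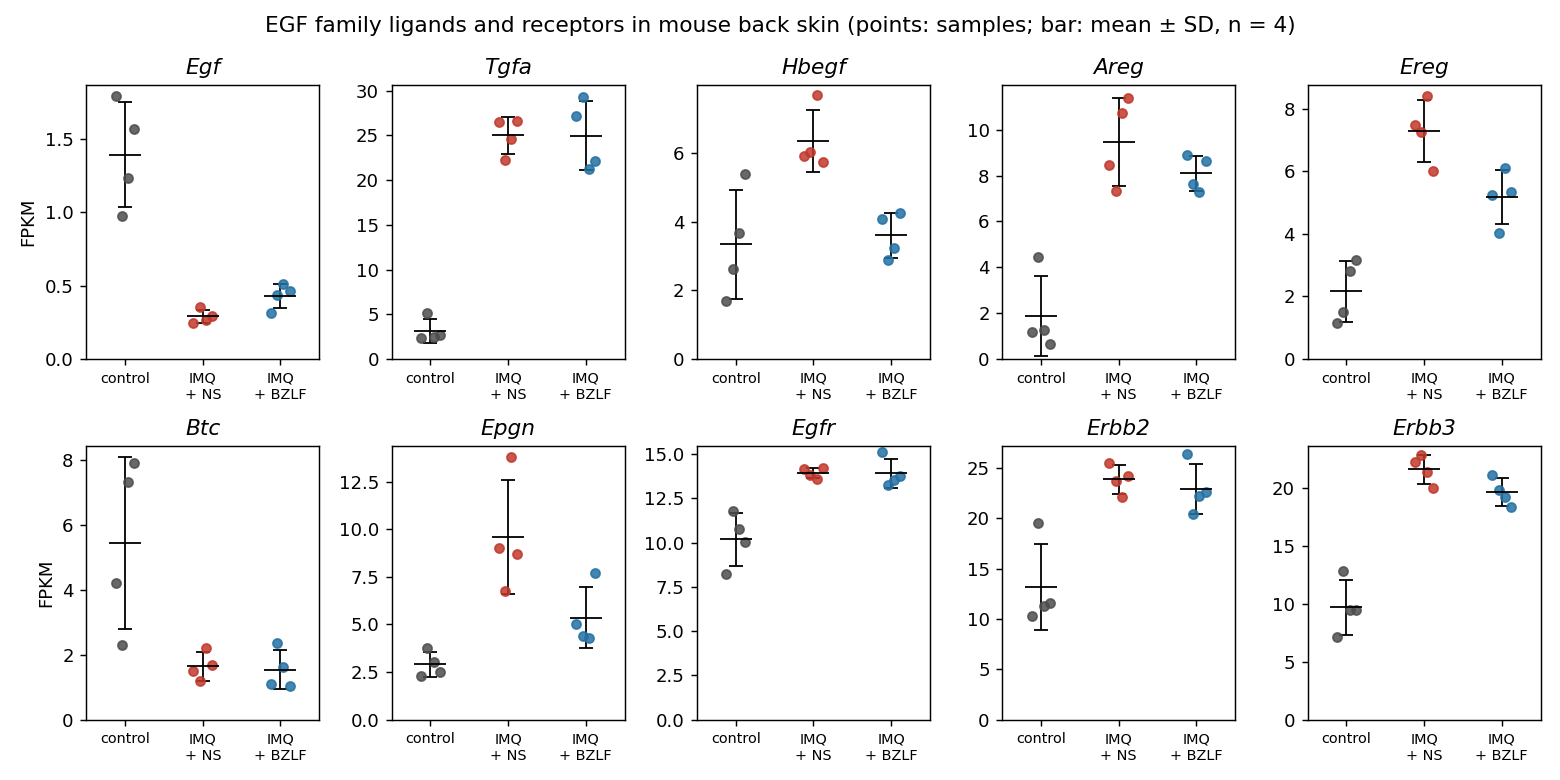
FPKM of each of the 10 members (vertical axis, from 0) by group, with points for the samples and bars for the mean and SD (n = 4). The IMQ + NS and control points do not overlap in any panel, and control replicate 2, drawn as the second point, is the highest control for Tgfa at 5.09 FPKM, for Areg at 4.45 FPKM and for Erbb2 at 19.5 FPKM.

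Tgfa, which encodes transforming growth factor alpha, had the largest change of the 10. Its level was 2.30, 5.09, 2.43 and 2.72 FPKM in control replicates 1 to 4. In the IMQ + NS replicates it was 26.5, 22.3, 24.6 and 26.6 FPKM. In the IMQ + BZLF replicates it was 27.1, 29.3, 21.2 and 22.2 FPKM. Both IMQ groups lay far above every control and overlapped each other. The mean of IMQ + NS was 7.96-fold that of the controls, and the log2 fold change was 3.03 (standard error 0.23, limma adjusted p = 1.89e-05). Tgfa went from a level that overlapped those of Hbegf and Epgn in the controls to the most abundant ligand in both IMQ groups, where its lowest sample was above the highest sample of the next ligand, Epgn or Areg.

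Epgn, Ereg, Areg and Btc are neighbours on mouse chromosome 5. In GRCm38 the RefSeq genes lie at 91027517 to 91035212 for Epgn, 91074617 to 91093649 for Ereg and 91139599 to 91148432 for Areg, all on the plus strand, and at 91357261 to 91402994 for Btc on the minus strand. The 4 genes span 375.5 kb, in which RefSeq lists 4 protein-coding genes, all of them these ligands, and 3 genes of other kinds. The first 3 rose and Btc, 208.8 kb beyond Areg, fell. Ereg shares 319 bases with the long non-coding gene Gm19610, and reads from that stretch were not separated here.

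The sequences before the starts of Epgn and Areg, which rose, and of Btc, which fell, are shown because these neighbours moved in opposite directions. They come from RefSeq on GRCm38, run 5′ to 3′ on the strand of the gene and end at the base before the annotated start. The one for Epgn stops at 197 bases, short of an earlier start in GENCODE. RefSeq promoters were at hand for 7 of the 10 members and not for Hbegf, Ereg and Erbb3. Capitals mark the motifs that were found out of a search on both strands for the TATA box (TATAAA), the GC box (GGGCGG), the AP-1 site (written TGANTCA) and the STAT site (written TTCNNNGAA).
Epgn, chr5:91027267-91027463, plus strand: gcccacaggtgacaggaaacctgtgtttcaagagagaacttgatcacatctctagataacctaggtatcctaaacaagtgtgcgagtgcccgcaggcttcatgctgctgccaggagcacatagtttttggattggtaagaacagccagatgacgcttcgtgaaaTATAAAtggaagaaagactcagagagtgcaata
Areg, chr5:91139349-91139598, plus strand: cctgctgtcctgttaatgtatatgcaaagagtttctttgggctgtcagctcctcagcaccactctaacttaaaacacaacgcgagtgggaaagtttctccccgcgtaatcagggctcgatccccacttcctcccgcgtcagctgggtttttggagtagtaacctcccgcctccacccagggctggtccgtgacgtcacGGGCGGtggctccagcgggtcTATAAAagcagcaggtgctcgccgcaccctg
Btc, chr5:91402995-91403244, minus strand: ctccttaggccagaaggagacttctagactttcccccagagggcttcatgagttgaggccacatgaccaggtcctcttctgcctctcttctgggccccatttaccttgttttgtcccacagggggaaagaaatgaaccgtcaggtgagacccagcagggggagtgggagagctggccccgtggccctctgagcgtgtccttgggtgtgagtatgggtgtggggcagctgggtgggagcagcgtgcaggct
TATAAA starts 31 bases before the start of Areg and 33 bases before the GENCODE start of Epgn, and Areg has a GC box that starts 52 bases before its start. Btc has none of the 4 motifs in this window. Of 32851 mouse promoters cut to the same 250 bases, 12.4% hold the TATA box, 32.7% the GC box, 6.75% the AP-1 site and 7.02% the STAT site. In the window of Egfr a GC box starts 9 bases before the start. The window at hand for Tgfa belongs to a start inside the annotated gene and is not described. A match is only a match of letters, and no binding was measured.

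Areg encodes amphiregulin, a ligand that keratinocytes release and respond to. Control replicates 1 to 4 held 1.17, 4.45, 1.26 and 0.636 FPKM of Areg. IMQ + NS replicates held 8.45, 7.31, 10.7 and 11.4 FPKM, and IMQ + BZLF replicates 8.88, 7.63, 7.28 and 8.62 FPKM. Every IMQ sample lay above every control, and control replicate 2 lay between the other controls and the lesions. The log2 fold change of IMQ + NS against control was 2.60 (standard error 0.48, limma adjusted p = 0.00199), and it was 3.12 without that replicate.

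Ereg encodes epiregulin. It stood at 1.16, 1.51, 2.80 and 3.18 FPKM in the controls, at 7.47, 7.26, 8.40 and 6.02 FPKM in IMQ + NS, and at 5.23, 4.02, 6.11 and 5.32 FPKM in IMQ + BZLF. The lesions were above the controls in every sample, and 1 IMQ + BZLF sample reached into the range of IMQ + NS. Ereg rose by 1.81 on the log2 scale in IMQ + NS (standard error 0.30, limma adjusted p = 0.00107). Epgn, the gene of epigen, was measured at 2.29, 3.74, 3.05 and 2.52 FPKM in the controls, at 9.02, 6.78, 13.8 and 8.72 FPKM in IMQ + NS, and at 5.03, 4.40, 4.27 and 7.72 FPKM in IMQ + BZLF. Here too the lesions lay above all controls, and IMQ + BZLF replicate 4 was the one that overlapped IMQ + NS. The rise in IMQ + NS was 1.67 on the log2 scale (standard error 0.23, limma adjusted p = 0.000412).

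Btc encodes betacellulin and was the most abundant ligand by its mean in control skin, although its samples overlapped those of Hbegf, the next in order. The controls held 4.21, 2.30, 7.31 and 7.90 FPKM, the IMQ + NS samples 1.49, 1.18, 2.22 and 1.67 FPKM, and the IMQ + BZLF samples 1.11, 2.36, 1.63 and 1.05 FPKM. Control replicate 2 was the lowest control and lay just above the highest IMQ + NS sample and below the highest IMQ + BZLF sample. Btc fell by 1.55 on the log2 scale in IMQ + NS (standard error 0.38, limma adjusted p = 0.00784).

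**Figure D2:**
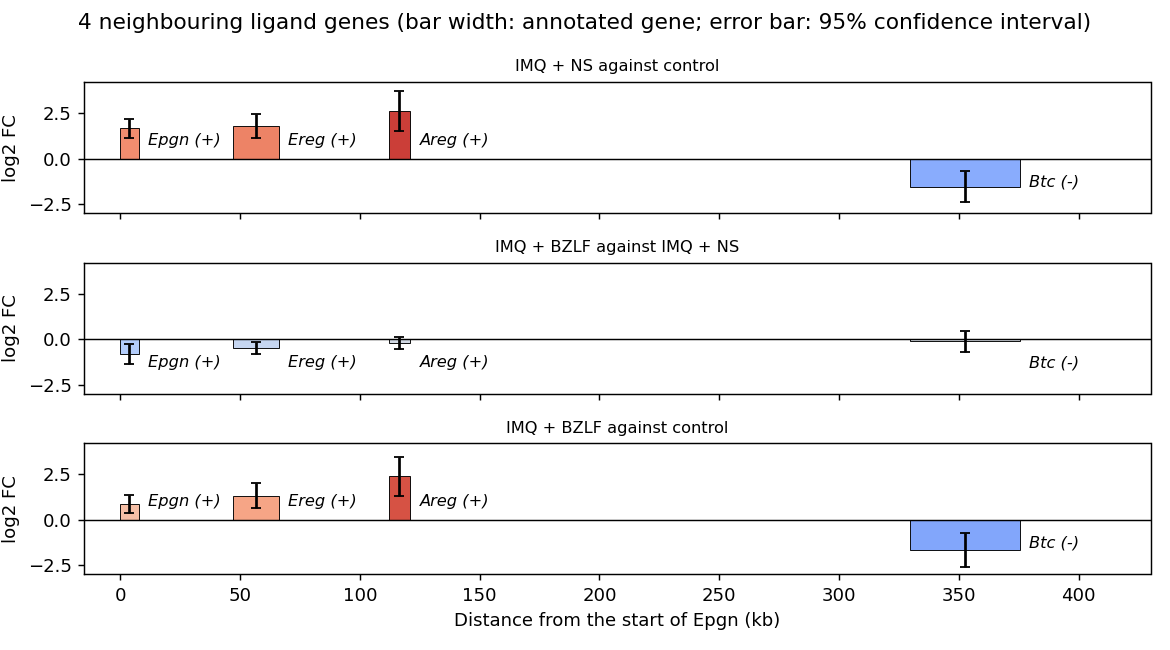
The 4 neighbouring ligand genes drawn to scale by distance in kb from the start of Epgn (horizontal axis), with the log2 fold change of each on the vertical axis, 1 panel for each comparison, the strand in brackets and error bars for the 95% confidence interval. Against control, Epgn, Ereg and Areg point up and Btc points down in both IMQ groups, and between the IMQ groups none of the 4 passed the test.

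Egf itself, the founding ligand of the family, had the lowest mean of the 7 in every group, although in control its samples overlapped those of Areg. Its level was 1.79, 0.979, 1.23 and 1.57 FPKM in the controls, 0.249, 0.354, 0.269 and 0.291 FPKM in IMQ + NS, and 0.316, 0.434, 0.512 and 0.462 FPKM in IMQ + BZLF. All 4 controls lay above all 8 IMQ samples. Egf fell by 1.91 on the log2 scale in IMQ + NS (standard error 0.20, limma adjusted p = 0.000113). Reads from the 1565 bases that Egf shares with the long non-coding gene 6330410L21Rik were not separated here. Kidney and the submandibular gland are the classic rich sources of Egf, and some libraries held transcripts of other organs. Of the 6 kidney genes, Kap reached 5.27 FPKM and was at 0 in 10 samples, while Umod was at 0 in 10 and did not exceed 0.0759 FPKM in any. The kidney sum was 5.45 FPKM in control replicate 1 and 3.78 FPKM in IMQ + BZLF replicate 1. Of the 6 submandibular genes Klk1 and Bpifa2 were analysed here. Bpifa2 was at 0 in 11 samples and at most 0.0254 FPKM, so their sum was nearly all Klk1. The sum was 3.29 to 8.79 FPKM in control, 0.0544 to 7.48 in IMQ + NS and 0.744 to 6.16 with IMQ + BZLF. In each group replicate 4 had the lowest value of this sum and of the pancreas sum, and the organ behind Klk1 was not tested. Without control replicate 1 the change of Egf was -1.79 (limma adjusted p = 0.00049), and without IMQ + BZLF replicate 1 that of IMQ + BZLF against control was -1.36 (limma adjusted p = 0.00255).

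Hbegf encodes heparin-binding EGF-like growth factor, which is released early in wounded skin. The gene shares 613 bases with the long non-coding gene Gm41698, and reads from that stretch were not separated here. The controls spread widely, with 1.70, 2.62, 3.67 and 5.39 FPKM. IMQ + NS samples held 5.93, 6.02, 7.68 and 5.74 FPKM, and IMQ + BZLF samples 4.07, 2.88, 3.24 and 4.26 FPKM. Hbegf was the one ligand whose IMQ + BZLF samples lay within the range of the controls and wholly below IMQ + NS. Its rise in IMQ + NS was 1.01 on the log2 scale (standard error 0.31, limma adjusted p = 0.0207), and without IMQ + NS replicate 3 it was 0.92 with an adjusted p of 0.0569. The controls ranked in the same order for Egr1, an immediate early transcription factor, at 77.7, 106, 191 and 222 FPKM in replicates 1 to 4. This order is not particular to Hbegf. Ereg, at 1.16, 1.51, 2.80 and 3.18 FPKM, and Ier3, at 28.2, 32.6, 41.6 and 46.6 FPKM, had it too. The part of this in the level of Hbegf was not tested.

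The 3 receptors rose by 0.46 to 1.17 on the log2 scale in IMQ + NS. Egfr stood at 8.20, 11.8, 10.8 and 10.02 FPKM in the controls, at 14.2, 13.8, 13.6 and 14.2 FPKM in IMQ + NS and at 15.1, 13.3, 13.5 and 13.7 FPKM in IMQ + BZLF. Both IMQ groups were above all controls and overlapped each other. The log2 fold change of IMQ + NS was 0.46 (standard error 0.11, limma adjusted p = 0.00775), under 1 on the log2 scale. The 21103 bases that Egfr shares with the long non-coding gene Egfros, and 11057 with Gm39584, were not separated from it here. The same holds for the 9 bases that Erbb2 shares with Mien1 and the 61 that Erbb3 shares with Mir6917.

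Erbb2, which encodes the receptor without a ligand, had 10.3, 19.5, 11.3 and 11.6 FPKM in the controls, 25.5, 23.7, 22.1 and 24.2 FPKM in IMQ + NS, and 26.3, 20.4, 22.2 and 22.6 FPKM in IMQ + BZLF. Control replicate 2 was close to the lowest lesion sample, and the other controls were far below. Erbb2 rose by 0.90 on the log2 scale in IMQ + NS (standard error 0.19, limma adjusted p = 0.00346) and by 1.10 without that control. Erbb3, the neuregulin receptor, had 7.13, 12.9, 9.44 and 9.47 FPKM in the controls, 22.3, 22.8, 21.4 and 19.97 FPKM in IMQ + NS and 21.2, 19.9, 19.2 and 18.4 FPKM in IMQ + BZLF. Its lesion samples all lay above its controls. The rise of Erbb3 was the largest among the receptors in IMQ + NS, at 1.17 on the log2 scale (standard error 0.16, limma adjusted p = 4e-04). By mean, Erbb2 was the most abundant receptor in each group. In both IMQ groups the samples of Erbb2 and Erbb3 overlapped and Egfr lay below both, while in the controls Erbb2 overlapped Egfr and Egfr overlapped Erbb3.

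BZLF on the lesions was compared with saline on the lesions. Hbegf was the only one of the 10 members that passed, and it was lower. Its 4 IMQ + BZLF samples, at 2.88 to 4.26 FPKM, were all below the 4 IMQ + NS samples, at 5.74 to 7.68 FPKM. It fell by 0.80 on the log2 scale (standard error 0.14, limma adjusted p = 0.0136), which is short of 1, and the mean was 0.569 of that of IMQ + NS. This call was lost, with an adjusted p of 0.154, when all 12 samples shared 1 estimate of the spread. In all, 0 of 10 members were higher and 1 was lower, where 1.28% and 5.17% of the tested genes were. With the fold limit the counts were 0 and 0, against 0.321% and 2.20% of the tested genes. At an unadjusted p below 0.05 in limma, 1 member was higher (Egf) and 3 were lower (Hbegf, Epgn and Ereg). The exact permutation test was below 0.05 for 1 member, Hbegf. The shares of all tested genes at these unadjusted thresholds were not counted, so these counts are not read as a result about the family.

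Epgn differed by -0.82 on the log2 scale (95% confidence interval -1.36 to -0.28, limma adjusted p = 0.0771). Without IMQ + BZLF replicate 4 the difference was -1.01 with an adjusted p of 0.0344. Ereg differed by -0.49 (interval -0.81 to -0.18, adjusted p = 0.072) and Egf by 0.44 (interval 0.04 to 0.84, adjusted p = 0.184). These 3 ligands had intervals that leave out 0 and did not pass over all tested genes. For Tgfa the difference was -0.01 with an interval from -0.26 to 0.24, for Areg -0.21 with -0.52 to 0.11, and for Btc -0.12 with -0.73 to 0.48. The receptors had narrower intervals, from -0.13 to 0.12 for Egfr, from -0.25 to 0.12 for Erbb2 and from -0.28 to 0.01 for Erbb3. The intervals of these 6 genes leave out a change of 1 on the log2 scale in either direction. The median log2 fold change was -0.13 over the members and -0.02 over all tested genes.

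IMQ + BZLF skin was also set against control skin. It shares its samples with the comparisons above, so it is not a separate line of evidence. With an adjusted p below 0.05, 7 members were higher and 2 lower, against 23.8% and 29.2% of the tested genes. With the fold limit 4 were higher (Tgfa, Areg, Ereg and Erbb3) and 2 lower (Egf and Btc), against 9.65% and 10.1%. Tgfa was 3.01 higher on the log2 scale (standard error 0.24, limma adjusted p = 4.05e-05), next to 3.03 for IMQ + NS. Areg was 2.40 higher, Ereg 1.32, Epgn 0.84, Erbb3 1.04, Erbb2 0.83 and Egfr 0.46, with limma adjusted p between 0.00101 and 0.0118. Egf was lower by a log2 fold change of -1.47 (limma adjusted p = 0.00076) and Btc by -1.67 (limma adjusted p = 0.00846), although the samples of Btc overlapped those of the controls. Hbegf, at 0.21 with an interval from -0.51 to 0.93, did not pass (limma adjusted p = 0.597). The median log2 fold change was 0.84 over the members and -0.02 over all tested genes.

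**Figure D3:**
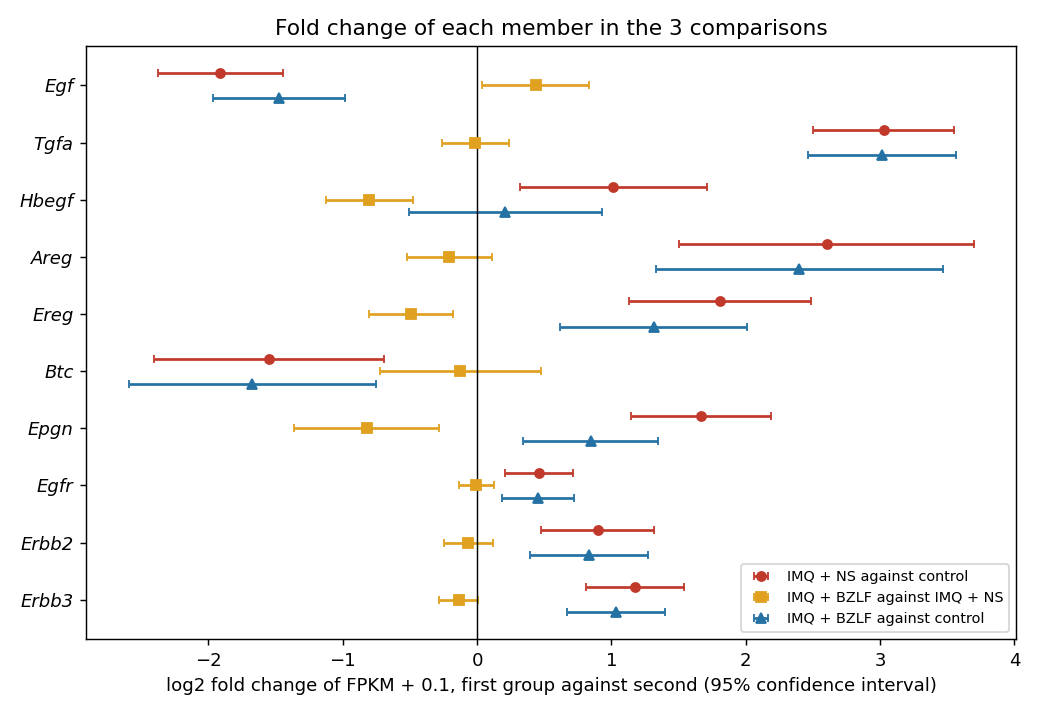
Log2 fold change of each member (horizontal axis) in the 3 comparisons, with 95% confidence intervals as bars. The IMQ + NS and IMQ + BZLF changes from control lie close together for Tgfa (3.03 and 3.01), while for Hbegf they are 1.01 and 0.21, and most of the IMQ + BZLF against IMQ + NS values lie near 0.

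The mixture of ligand transcripts differed between control and IMQ skin. Summed over the 7 ligands, the level was 20.2 ± 3.98 FPKM (SD, n = 4) in control, 59.6 ± 6.75 with IMQ + NS and 49.1 ± 3.37 after IMQ + BZLF. The sum was higher in both IMQ groups than in every control (exact permutation p = 0.0286), and IMQ + BZLF and IMQ + NS overlapped (exact permutation p = 0.0571). Tgfa made up 15.7% of the sum in control, 42.2% in IMQ + NS and 50.6% with IMQ + BZLF. Btc made up 26.6%, 2.72% and 3.15% in the same order, and Egf 7.31%, 0.498% and 0.888%. For these 3 ligands the shares of both IMQ groups did not overlap those of the controls. The share of Hbegf was 15.9% in control, 10.7% in IMQ + NS and 7.35% with IMQ + BZLF, without overlap between the IMQ groups. Of the 21 ligand shares compared none passed after adjustment, since the smallest exact p, 0.0286, became 0.0751, and before adjustment the p of 8 was that smallest value.

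The receptor sum was 33.1 ± 7.84 FPKM (SD, n = 4) in control, 59.4 ± 2.15 with IMQ + NS and 56.4 ± 4.17 after IMQ + BZLF. Egfr took 31.2% of it in control, 23.5% in IMQ + NS and 24.7% with IMQ + BZLF. Erbb3 took 29.3%, 36.4% and 34.9%. Both IMQ groups lay apart from the controls in these 2 shares, with an adjusted exact permutation p of 0.0644 over the 9 receptor shares compared. The share of Erbb2 was 39.4% in control and 40.2% and 40.5% in IMQ + NS and IMQ + BZLF, and its groups overlapped.

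**Figure D4:**
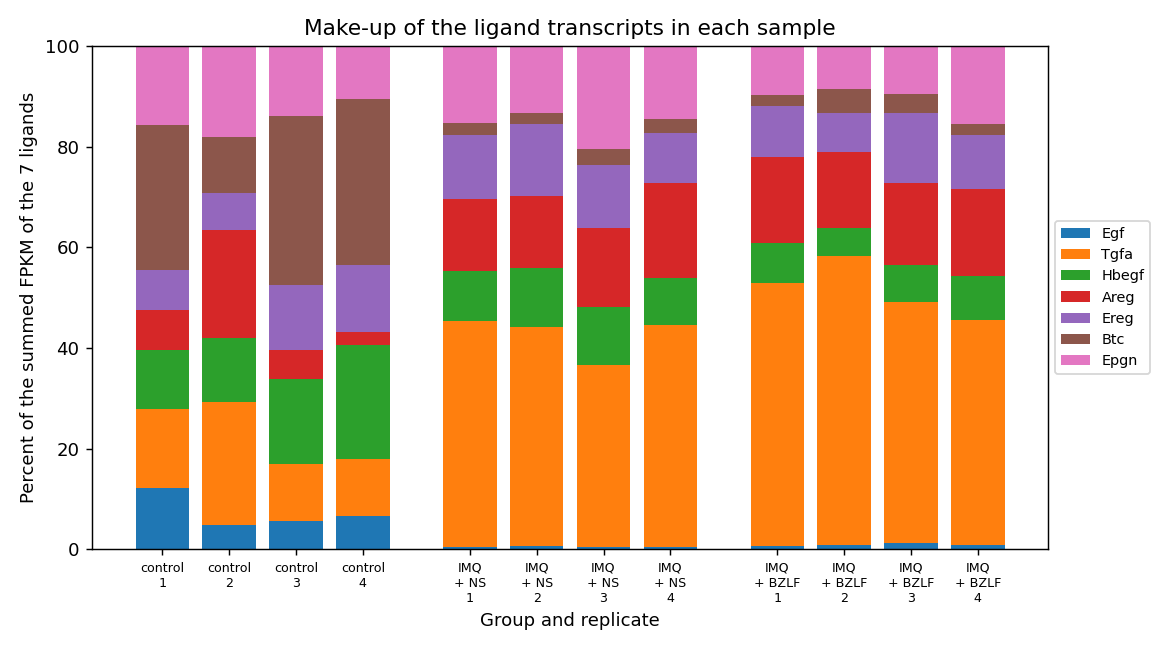
Percent of the summed FPKM of the 7 ligands that each ligand takes (vertical axis, stacked to 100) in each of the 12 samples. Tgfa is the widest band in all 8 IMQ samples, and Btc, with a mean of 26.6% in control, is a thin band there with means of 2.72% and 3.15%.

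Markers of cell types moved with these groups. All 6 inner root sheath genes, which mark the growing hair follicle, were higher in both IMQ groups than in control, with sums of 18.8 to 1938 FPKM in control, 7887 to 10016 in IMQ + NS and 9676 to 13695 with IMQ + BZLF. None of these genes was at 0 in any sample. Control replicate 2 held the 1938, and it was also the control nearest to the IMQ groups in 8 of the 10 members, all but Hbegf and Ereg. Without it the calls of the members were the same in number, 8 higher and 2 lower in IMQ + NS and 7 and 2 in IMQ + BZLF. The part of the hair follicle in the levels of the members was not tested.

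**Figure D5:**
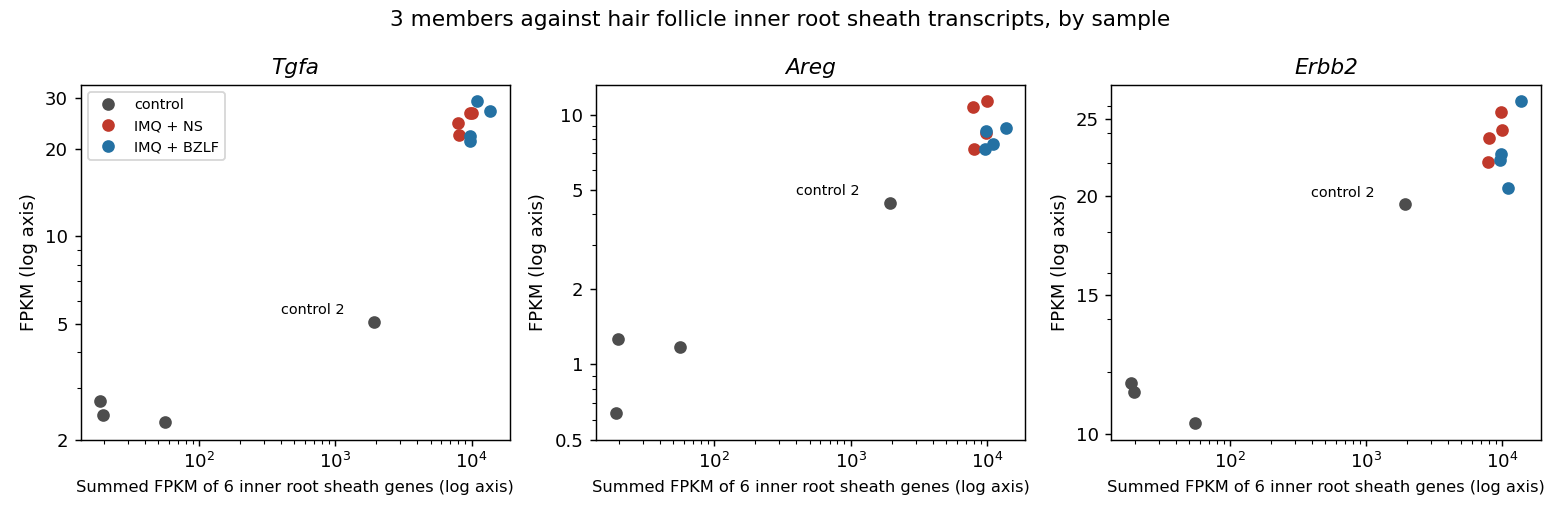
FPKM of Tgfa, Areg and Erbb2 (vertical axes, log scale) against the summed FPKM of 6 inner root sheath genes (horizontal axes, log scale), with 1 point for each sample. Control replicate 2, at a sum of 1938 FPKM, lies between the other 3 controls and the 8 IMQ samples in all 3 panels. The 3 members drawn are those in which this control was flagged as standing far from the other controls, so the panels do not stand for all members. For Hbegf and Ereg it was not the control nearest to the IMQ groups.

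Among keratinocyte lists, the 4 hyperproliferation keratins summed to 190 to 616 FPKM in control, 2344 to 4207 in IMQ + NS and 1140 to 1392 with IMQ + BZLF. All 4 were higher in IMQ + NS than in control and 3 were lower in IMQ + BZLF than in IMQ + NS. Basal keratinocyte genes summed to 1361 to 1833 FPKM in control, 3387 to 5476 in IMQ + NS and 1684 to 2362 with IMQ + BZLF. Of the 7, 5 were higher in IMQ + NS than in control and 5 were lower in IMQ + BZLF than in IMQ + NS. Krt15 went the other way and was lower in both IMQ groups than in control. Its log2 fold change in IMQ + NS was -0.83 (limma adjusted p = 0.000679). Suprabasal keratinocyte genes summed to 1371 to 3304 FPKM in control, 2439 to 4709 in IMQ + NS and 1320 to 3186 with IMQ + BZLF, with 3 of 6 higher in IMQ + NS than in control and 0 of 6 past the limma test between the IMQ groups. Hbegf was higher in IMQ + NS than in control and lower after BZLF, as were the sums of the first 2 of these lists. The 6 neutrophil genes, whose S100a8 and S100a9 keratinocytes also make, summed to 37.8 to 56.8 FPKM in control, 3129 to 9898 in IMQ + NS and 63.8 to 84.2 with IMQ + BZLF. In IMQ + NS 5 of 6 were higher than in control and 1 did not pass, and all 6 were lower in IMQ + BZLF than in IMQ + NS. S100a8 reached 4874 FPKM and S100a9 4957, against at most 22.8 for Csf3r, 10.2 for Cxcr2, 11.1 for Mmp9 and 23.4 for Retnlg. The sum in IMQ + NS therefore mainly follows S100a8 and S100a9. Tissue beneath the epidermis had less signal in the IMQ groups. Dermal fibroblast genes summed to 13085 to 18643 FPKM in control, 3681 to 4890 in IMQ + NS and 4286 to 8109 with IMQ + BZLF, and 5 of 6 were lower in each IMQ group than in control. Skeletal muscle genes summed to 3346 to 8220, 619 to 1529 and 1099 to 1456 FPKM in the same order, with all 6 lower. For adipocyte genes the sums were 2323 to 5906, 894 to 1556 and 1194 to 1533 FPKM, with 5 of 6 lower. For sebaceous gland genes they were 820 to 1205, 377 to 678 and 529 to 813 FPKM, with 5 of 7 lower and 1 higher in each IMQ group. None of the genes in these keratinocyte, neutrophil, fibroblast, muscle, fat and sebaceous lists was at 0 in any sample. Mast cell and basophil genes summed to 199 to 337, 134 to 193 and 101 to 187 FPKM, with 3 of 6 lower in each IMQ group than in control. Of the same 6, 1 was higher in IMQ + NS and 2 were higher in IMQ + BZLF. The 4 T cell genes analysed here summed to 111 to 177, 94.2 to 109 and 88.2 to 119 FPKM. Most of this sum was Thy1, at 83.3 to 166 FPKM, so the sum mainly follows Thy1. Cd3e reached 3.08 FPKM at most, Lck 2.41 and Cd3g 12.3. None of the 4 passed in IMQ + NS, and 2 were lower in IMQ + BZLF than in control. Against control, 29.0% of all tested genes were higher and 27.1% lower in IMQ + NS, and 23.8% and 29.2% in IMQ + BZLF. Between the IMQ groups 1.28% were higher and 5.17% lower, and the counts of the lists are to be read beside these shares. The part of these cell types in the levels of Egf, Btc or the members that rose was not tested.

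Beyond the members, 72 genes of the pathway were listed by role and 69 were tested. In IMQ + NS against control, 33 were higher and 11 lower, beside 29.0% and 27.1% of all tested genes, and with the fold limit 9 and 2, beside 11.4% and 11.0%. In IMQ + BZLF against control, 28 were higher and 14 lower, beside 23.8% and 29.2%, and with the fold limit 8 and 3, beside 9.65% and 10.1%. The median log2 fold change of the 69 was 0.34 in IMQ + NS and 0.08 in IMQ + BZLF. In IMQ + BZLF against IMQ + NS, 0 were higher and 4 were lower with limma at an adjusted p below 0.05, beside 1.28% and 5.17% of all tested genes, so the lower count is near the share over all genes. At an unadjusted p below 0.05 the counts were 3 and 15. The shares of all tested genes at that threshold were not counted, so these 2 counts are not read as a result about the pathway. The counts by role that follow are to be read beside the adjusted shares, 29.0% higher and 27.1% lower in IMQ + NS.

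The rest of the family held 5 genes. Erbb4, the fourth receptor, ranged from 0 to 0.0126 FPKM and, like the neuregulin gene Nrg3, was below the filter. Nrg2, a ligand of ErbB3, rose from 0.389 FPKM on average in control to 2.01 in IMQ + NS, a log2 fold change of 2.10 (standard error 0.16, limma adjusted p = 2.09e-05). Nrg1 rose by 2.39 from a mean of 0.0173 FPKM to 0.515, and Nrg4 fell by 0.85.

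Of 10 genes that govern ligand release, 5 were higher in IMQ + NS (Adam8, Adam10, Adam12, Rhbdf2 and Rhbdl2) and 3 were lower (Adam15, Rhbdf1 and Timp3, a metalloprotease inhibitor), the latter near the 27.1% of all tested genes. Adam17, whose product is the main sheddase of several EGF family ligands, had a log2 fold change of 0.26 (limma adjusted p = 0.0756). Rhbdf2, whose product iRhom2 carries that sheddase to the cell surface, rose by 0.90. Adam12 rose by 1.62 (limma adjusted p = 0.0185), with samples that overlapped between the groups. Adam8, a protease of leukocytes and other cells, was the gene of this group that fell after BZLF, from 2.08, 3.46, 5.26 and 3.24 FPKM in IMQ + NS to 0.818, 1.24, 1.25 and 1.65 FPKM in IMQ + BZLF. The groups did not overlap, and the log2 fold change was -1.39 (standard error 0.28, limma adjusted p = 0.021). The 6 macrophage genes, none at 0 in any sample, summed to 647 to 924 FPKM in control, 464 to 658 in IMQ + NS and 305 to 451 with IMQ + BZLF, and 2 of the 6 were lower in IMQ + BZLF than in IMQ + NS, Adgre1 and C1qb. Adgre1 was at 22.6 to 33.3 FPKM in control, at 43.7 to 52.7 FPKM in IMQ + NS and at 12.9 to 19.98 FPKM with IMQ + BZLF. Its rise in IMQ + NS does not stand for the list. Of the 6 macrophage genes, 1 was higher and 5 were lower in IMQ + NS than in control, and all 6 were lower in IMQ + BZLF than in control. The part of macrophages or neutrophils in the level of Adam8 was not tested.

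Of 18 negative regulators, 8 were higher and 1 was lower in IMQ + NS, beside 29.0% and 27.1% of all tested genes. Dusp5, a phosphatase of ERK, rose by 1.77 on the log2 scale (limma adjusted p = 0.000755) and Rnf41, a ubiquitin ligase that acts on ErbB3, by 1.43 (limma adjusted p = 0.000955). Spry2 was the one that fell, by 0.95. Errfi1, an inhibitor of the EGF receptor kinase, had a log2 fold change of -0.30 (limma adjusted p = 0.446). None of the 18 passed between the IMQ groups at an adjusted p below 0.05 in limma.

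Of 26 signal transducers, 11 were higher and 5 lower in IMQ + NS, where 29.0% and 27.1% of all tested genes were. Braf, a kinase of the MAPK route, rose by 1.34 (limma adjusted p = 0.000946) and Pik3r1, a regulatory subunit of PI3K, fell by 1.24 (limma adjusted p = 0.000113). Stat3, a transcription factor also driven by cytokine receptors, was lower in IMQ + BZLF than in IMQ + NS, with a log2 fold change of -0.65 (standard error 0.12, limma adjusted p = 0.0172).

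Of 12 tested genes that the pathway is known to induce, 7 were higher and 1 lower in IMQ + NS, against 29.0% and 27.1% of all tested genes. Etv4 rose by 2.32 (limma adjusted p = 0.00649), with control replicate 2 at 11.05 FPKM and the other controls at 1.58 to 2.46 FPKM. Fosl1, a part of AP-1, rose by 1.82 (limma adjusted p = 0.000469), and Egr1 fell by 1.72 (limma adjusted p = 0.00142). Ptgs2, the inducible cyclooxygenase, stood at 0.505, 0.589, 1.31 and 1.07 FPKM in the controls, at 1.77, 1.68, 3.09 and 1.79 FPKM in IMQ + NS and at 0.901, 0.659, 0.767 and 1.01 FPKM in IMQ + BZLF. It rose by 1.22 in IMQ + NS (limma adjusted p = 0.0104) and fell by 1.20 after BZLF (limma adjusted p = 0.0124), without overlap in either comparison. Ier3 was the other gene of this list lower after BZLF, with a log2 fold change of -0.42 (limma adjusted p = 0.0108).

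The genes with the most similar profiles were sought among 12656 other genes with a mean of at least 1 FPKM, by the root mean square difference of log2(FPKM + 0.1) after centring, over the 12 samples, which share groups and libraries. For Tgfa they were AI661453, Gsdma and Ovol1, with differences of 0.16 to 0.19 beside a spread of 1.45 in Tgfa itself. For Erbb3 they were Rhbg, Tfap2c and Cep170b, at 0.06 to 0.09 beside 0.55. For Hbegf the nearest was Ptgs2, at 0.27 beside 0.58, then Tyro3 and Dlx5. Areg was nearest to Eya2, Cdh3 and Mybl2 and Ereg to Mpzl3, Cers3 and Asprv1. Btc was nearest to Sectm1a, Vipr1 and Mmp3 and Epgn to Ckmt1, Cd44 and Fam83b. These are descriptions of 12 values each and carry no test.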

How the data were processed

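RNA-seq of back skin was used from 12 samples in 3 groups of 4, grouped by the sample labels. The authors deposited 1 table of FPKM values, normalized for transcript length and depth and not pooled over replicates. The study's methods describe alignment to mRNA and lncRNA transcripts with Bowtie2 and FPKM from eXpress, while the submitters' processing notes name fastp, HISAT2, HTSeq, R 3.2.0 and mm10. Which of these made the table cannot be told apart, and neither can the library kits, which also differ between the sources. Counts were not used here, so the depth behind a value is unknown and precision rests on the 4 replicates.

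Genes with a mean of at least 0.1 FPKM were tested on log2(FPKM + 0.1) with limma 3.58.1 in R 4.3.3 (moderated variances with a trend), for each pair of groups, with Benjamini-Hochberg adjustment over all 15288 genes and a threshold of 0.05. The added 0.1 makes fold changes of low genes smaller. The code was tested on simulated data. Sums and shares were compared by exact two-sided permutation tests. The members and gene lists were chosen with earlier results of these data known. All members were named. In the pathway lists, genes were named that passed with a log2 fold change over 1 in size and a mean of at least 1 FPKM, and others only to spell out counts of 5 or fewer or as known parts of the route, chosen after their values were seen. For each member past the stricter call in any comparison and with a mean of at least 1 FPKM, the 3 genes nearest in profile were named. Sequences and positions are from RefSeq on GRCm38 (mm10). Figures were drawn with Python 3.11.15 and matplotlib 3.10.9. Alternatives were the constant, the filter, 3 scalings, 1 fit of all samples, other moderation, a replicate block and leaving out each sample.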

Additional observations from a re-analysis of the deposited data

Results flagged for a closer look

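Of 36 groups of 4 samples, 5 held a sample that stood far from the other 3 by Dixon's ratio, where chance gives about 1 in 20 for a single group. The 36 share the same libraries and include sums of the members, so they are not independent and no excess is read from the 5. Control replicate 2 was such a sample for Tgfa at 5.094 FPKM, for Areg at 4.445 FPKM and for Erbb2 at 19.52 FPKM, each time the highest control. IMQ + NS replicate 3 was the highest of its group for Hbegf, at 7.685 FPKM. IMQ + BZLF replicate 1 had the highest receptor sum of its group, at 62.63 FPKM. No cause of these was tested.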

How the results depend on the processing

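With other constants, filters, scalings or moderation the members kept their directions against control, and 8 were higher in IMQ + NS and 7 in IMQ + BZLF in each of these. With a mean of at least 1 FPKM, which leaves out Egf, the lower members numbered 1 in each of these comparisons. With a log2 fold limit of 1, 4 members were higher in IMQ + BZLF than in control and 0 were lower than in IMQ + NS. That count was also 0 with all 12 samples in one fit, and it ranged from 1 to 2 as single samples were left out (2 without IMQ + BZLF replicate 4). For pathway genes the fold limit gave 9 higher and 2 lower in IMQ + NS and 8 and 3 in IMQ + BZLF, and 2 lower after BZLF. Leaving out single samples gave 0 to 1 higher (1 without IMQ + BZLF replicate 4) and 2 to 5 lower after BZLF (2 without IMQ + NS replicate 4 or IMQ + BZLF replicate 2), and 9 to 15 lower in IMQ + BZLF than in control (9 without control replicate 1 or IMQ + BZLF replicate 3). Over all genes, 986 passed between the IMQ groups, and this fell to 499 when IMQ + NS replicate 3 or IMQ + BZLF replicate 2 was left out, to 520 for IMQ + NS replicate 4, and to 609 for IMQ + BZLF replicate 3. The sign of small differences between the IMQ groups turned. For Tgfa it was 0.0438 with median ratio scaling, 0.0177 with equal sums and 0.0452 with quantile normalization, and -0.0931 to 0.0607 as samples were left out. For Egfr the values were 0.051, 0.025 and 0.0498 in the same order, and -0.0455 to 0.0169. Btc ranged from -0.3428 to 0.0259, and Hbegf against control from -0.064 to 0.4733 in IMQ + BZLF, below 0 without control replicate 1. Equal sums and quantile normalization moved the median of all genes by -0.127 and -0.124 in IMQ + NS against control. The FPKM sums were 492551 to 506622 in IMQ + NS and 444660 to 461199 in control, a difference that equal sums takes out by construction. The cause of the unequal sums and of the other shifts was not tested.

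The labels do not say that the replicate numbers pair samples, and no pairing was used. Deviations from the group means correlated at -0.152 to 0.260 (median 0.103) between samples with the same number and at -0.236 to 0.268 (median -0.022) between others, and not every pair of equal number was above 0.1. Transcripts of other organs followed the number between control and IMQ + BZLF. The pancreas gene Prss2 was at 32.0, 32.8, 37.9 and 3.09 FPKM in control replicates 1 to 4 and at 31.7, 30.2, 38.8 and 2.63 FPKM in the same IMQ + BZLF replicates, and the highest kidney and seminal vesicle sums of both groups also shared a number. Whether these samples were handled together was not tested. A replicate block left 9 pathway genes lower in IMQ + BZLF than in control and changed no call of a member. The number of reads per value is unknown, which limits how firmly Egf and other low genes are read.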
